A study of Mus musculus with 6 samples.

Results

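The transcripts of 7 Rab GTPases of vesicle traffic, Rab14, Rab22a, Rab17, Rab25, Rab13, Rab33b and Rab3b, were followed in mouse melanocytes after transfection with an siRNA against Dicer. The members were taken by gene symbol from the table of array values, each through the transcript cluster (the unit the array summarises into 1 value per gene model) that the platform's annotation assigns to that gene alone. All 7 had 1 such cluster, out of 7660 genes with a value. The values used here cover chromosomes 1 to 4 only, and shares of all genes refer to these chromosomes. The RNA came from Melan-a, an immortalised line of pigmented C57BL/6 melanocytes grown with 200 nM TPA, a phorbol ester that activates protein kinase C. In 3 cultures Dicer was targeted (siDicer) and 3 received a control siRNA (siScr), and both groups were given 50 pmol of siRNA by the same lipid and magnetic method. Replicates 1, 2 and 3 of both groups were at cell passages 47, 54 and 56. The titles place the samples at 48 h after transfection, while the treatment protocol gives a change of medium at 6 h and lysis 24 h later. The design text calls the replicates biological, but all come from 1 cell line.

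Rab proteins are small GTPases that act as switches on membranes: bound to GTP they recruit effectors such as tethers and motors, and after hydrolysis to GDP they are taken off the membrane. Exchange factors (GEFs) load them with GTP, GTPase activating proteins (GAPs) turn them off, and a prenyl lipid tail, added with the help of an escort protein, anchors them. In melanocytes Rab proteins sort enzymes into melanosomes on endosomal carriers and hold mature melanosomes near the cell edge. Rab27a, Rab32 and Rab38, the best known Rab proteins of the melanosome, were not analysed here.

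The DNA just before the start site is shown for the 3 genes whose siDicer and siScr arrays did not overlap, Rab22a, Rab13 and Rab17. The arrays also did not overlap for 14.5% of all 5362 tested genes. None of the 3 passed the test of siDicer against siScr given below, so they are not shown as genes that responded. Each sequence holds the 250 bases upstream of a start site listed by RefSeq (build GRCm38.p6), read in the direction of transcription, with motif matches in capitals. The stretches are chr2:173659595-173659844 (plus strand) for Rab22a, chr3:90213465-90213714 (plus strand, the first of 2 listed starts) for Rab13 and chr1:90967668-90967917 (minus strand) for Rab17, whose listed start lies inside the span of the gene, downstream of the start of a longer transcript.
Rab22a: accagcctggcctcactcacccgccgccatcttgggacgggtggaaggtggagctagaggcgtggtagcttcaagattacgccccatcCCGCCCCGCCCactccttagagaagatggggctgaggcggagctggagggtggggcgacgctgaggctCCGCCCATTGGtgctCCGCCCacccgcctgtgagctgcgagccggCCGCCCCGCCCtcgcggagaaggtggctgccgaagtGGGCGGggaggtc
Rab13: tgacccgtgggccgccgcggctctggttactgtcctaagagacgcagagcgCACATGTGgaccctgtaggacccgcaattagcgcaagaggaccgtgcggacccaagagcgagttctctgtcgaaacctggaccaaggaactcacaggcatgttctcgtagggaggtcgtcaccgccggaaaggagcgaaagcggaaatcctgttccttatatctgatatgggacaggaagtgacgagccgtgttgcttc
Rab17: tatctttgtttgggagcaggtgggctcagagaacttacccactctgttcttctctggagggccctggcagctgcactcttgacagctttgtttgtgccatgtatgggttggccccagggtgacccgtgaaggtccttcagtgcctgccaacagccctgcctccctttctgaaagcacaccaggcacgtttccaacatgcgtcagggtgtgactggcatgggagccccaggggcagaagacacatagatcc

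Motifs were searched on both strands, namely the E-boxes CACGTG and CATGTG, the TPA response element TGACTCA, the CCAAT box, the GC box GGGCGG and the TATA box TATAAA. The Rab22a stretch held 7 GC boxes and 1 CCAAT box, some of which overlap or abut, and 70% of its bases were G or C. The Rab13 stretch held 2 overlapping CATGTG matches, 1 on each strand, and 57.6% G or C. The stretch before the second listed start of Rab13, which is not shown, held 2 CCAAT boxes, 1 GC box and 9 CpG dinucleotides. The Rab17 stretch held none of these motifs and 3 CpG dinucleotides, against 21 CpG for Rab22a and 20 for the first start of Rab13. Over the 32851 promoter stretches of the same length in the RefSeq table, 32.7% held a GC box, 33.8% a CCAAT box, 12.3% CATGTG, 6.02% CACGTG, 4.46% TGACTCA and 12.4% TATAAA, and the median G or C content was 52.4%. Of the other 4 genes, Rab14, Rab33b and Rab3b held GC boxes (1, 1 and 4 matches), Rab3b held a TATA box as well, and Rab25 held none. The CpG counts of these 4 were 23 for Rab14, 23 for Rab33b, 8 for Rab25 and 6 for Rab3b. A match is a run of letters in this window and was not tested as a binding site.

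Dicer1 itself was not analysed here, and the knockdown was therefore not checked. The medians of the 6 arrays ran from log2 4.63 to 4.68, and any 2 arrays had a correlation of 0.993 to 0.997. Of 16 melanocyte markers 3 had a value, Tyrp1, Slc24a5 and Mlph, at mean log2 signals of 12.81, 10.59 and 10.01 in siDicer and 12.86, 10.85 and 10.05 in siScr. The sum of their linear signals ranged from 8645 to 10516 in siDicer and from 9234 to 11583 in siScr. Leukocyte and fibroblast marker sums ranged from 112 to 120 and 156 to 189 in siDicer and from 111 to 127 and 162 to 195 in siScr (6 of 10 and 5 of 10 markers with a value). In such bulk RNA, fewer cells with a transcript and less of it per cell cannot be told apart. Of 5362 genes tested with limma over the 6 arrays, 1 passed an adjusted p of 0.05 (0.0186%). That count was 0 without siDicer replicate 3 and 2 without siScr replicate 2.

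None of the 7 Rab genes passed the test. The log2 differences between siDicer and siScr ran from -0.16 for Rab22a to 0.13 for Rab17, and the lowest adjusted p was 0.575 (limma, Benjamini-Hochberg over 5362 genes). At an unadjusted p under 0.05 there was 1 member, Rab22a, against 8.52% of all tested genes. With passage as a block in the fit 0 members passed, with adjusted p from 0.339 to 0.969 (limma), while 93 genes (1.73%) passed over the whole table. Rab22a was again the 1 member with an unadjusted p under 0.05 there, against 13.8% of all genes. The 95% intervals of the 7 fold changes, each for its gene alone, reached no lower than 0.803 and no higher than 1.21. They bound the size of a change in array signal, which need not equal the change in transcript, and do not show that the levels are equal.

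**Figure D1:**
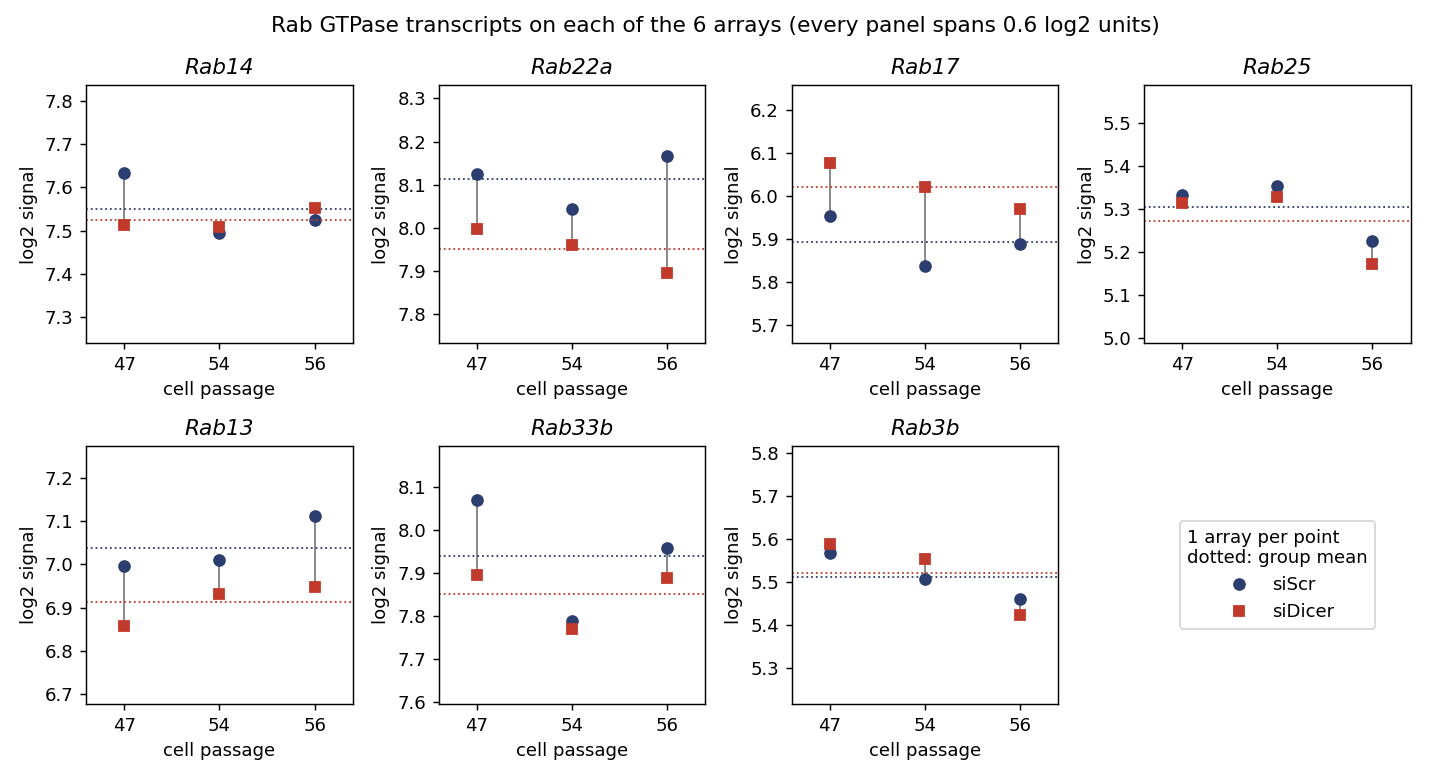
Log2 signal (vertical axis) of each Rab gene by cell passage (horizontal axis), with 1 point per array, circles for siScr, squares for siDicer, a grey line joining the arrays of 1 passage and dotted lines for the group means. The siDicer squares lie below the siScr circles at all 3 passages for Rab22a, Rab13, Rab33b and Rab25 (by 0.02 to 0.06 for Rab25) and above them for Rab17, and the Rab33b arrays of both groups are lowest at passage 54.

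Rab22a, Rab14, Rab17 and Rab25 act on endosomes. Rab22a works on early and recycling endosomes and, in melanocytes, in the endosomal transport of melanosome cargo. Its log2 signals were 8.00, 7.96 and 7.90 in siDicer and 8.13, 8.04 and 8.17 in siScr at passages 47, 54 and 56. Every siDicer array lay below every siScr array. Within passages the log2 difference was -0.13, -0.08 and -0.27, widest at passage 56. The means were 7.95 ± 0.051 and 8.11 ± 0.062 (SD, n = 3), a difference of -0.16 with a standard error of 0.067, or 10.6% less signal in siDicer. It did not pass (limma, adjusted p = 0.575, and 0.339 with passage as a block). With 1 array left out the difference ran from -0.20 to -0.13.

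Rab14 carries cargo between early endosomes, recycling endosomes and the Golgi. Its log2 signals were 7.51, 7.51 and 7.55 in siDicer and 7.63, 7.49 and 7.52 in siScr. The groups overlapped, and the siScr array of passage 47 stood above the other 5. The difference was -0.12 at passage 47, 0.01 at passage 54 and 0.03 at passage 56, and over all arrays it was -0.03 with a standard error of 0.066 and did not pass (limma, adjusted p = 0.958). The 95% interval of the fold ran from 0.884 to 1.09.

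Rab17 belongs to recycling endosomes, was first studied in transcytosis across epithelia, and is known in melanocytes from filopodia and melanosome release. Its log2 signals were 6.08, 6.02 and 5.97 in siDicer and 5.95, 5.84 and 5.89 in siScr. The groups did not overlap, though the lowest siDicer array and the highest siScr array were only 5.97 and 5.95. Within passages 47, 54 and 56 the groups were 0.12, 0.18 and 0.08 apart. Over all arrays siDicer stood 9.31% above siScr, a log2 difference of 0.13 with a standard error of 0.063, and this did not pass (limma, adjusted p = 0.660, and 0.398 with passage as a block).

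Rab25, a relative of Rab11 that recycles integrins and other cargo in epithelial cells, had log2 signals of 5.31, 5.33 and 5.17 in siDicer and 5.33, 5.35 and 5.23 in siScr. The groups overlapped, and the arrays of passage 56 were the lowest in both. The siDicer array was lower at each passage by small amounts, -0.02, -0.03 and -0.06, and over all arrays the difference of -0.03 had a standard error of 0.068 and did not pass (limma, adjusted p = 0.949). Whether Rab25 is transcribed in these cells cannot be read from this level, since no detection value was used here and separate probes cannot be set against each other. Of 17 keratinocyte and epithelial markers 8 had a value, with mean log2 signals from 3.70 to 6.90. Their summed linear signal ranged from 397 to 415 in siDicer and from 394 to 450.1 in siScr, and its part in the Rab17 and Rab25 values was not tested.

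Rab13 guides vesicles to cell junctions and the leading edge. Its log2 signals were 6.856, 6.932 and 6.948 in siDicer and 6.997, 7.010 and 7.111 in siScr. As for Rab22a, every siDicer array lay below every siScr array, with differences of -0.14, -0.08 and -0.16 at passages 47, 54 and 56. The means of 6.91 ± 0.049 and 7.04 ± 0.063 (SD, n = 3) differed by -0.13 with a standard error of 0.066, or 8.44% less signal in siDicer. This did not pass (limma, adjusted p = 0.663, and 0.411 with passage as a block).

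Rab33b sits on the Golgi, where it takes part in transport within the stack, and binds the autophagy protein Atg16l1. Its log2 signals were 7.90, 7.77 and 7.89 in siDicer and 8.07, 7.79 and 7.96 in siScr. Passage 54 gave the lowest array of each group, and the groups overlapped. The differences were -0.17, -0.02 and -0.07, with a value of -0.09 over all arrays and a standard error of 0.087, and did not pass (limma, adjusted p = 0.853). Leaving out siScr replicate 2 gave -0.16, and leaving out siScr replicate 1 gave -0.02.

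Rab3b, a Rab of regulated exocytosis in endocrine and nerve cells, had log2 signals of 5.59, 5.55 and 5.42 in siDicer and 5.57, 5.51 and 5.46 in siScr. As for Rab25, whether the gene is transcribed in these cells cannot be read from this level. The groups overlapped, with the lowest array of each at passage 56. The difference was 0.02, 0.05 and -0.04 at the 3 passages and 0.0095 over all arrays, with a standard error of 0.067, and did not pass (limma, adjusted p = 0.989). The 95% interval of the fold ran from 0.905 to 1.12.

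**Figure D2:**
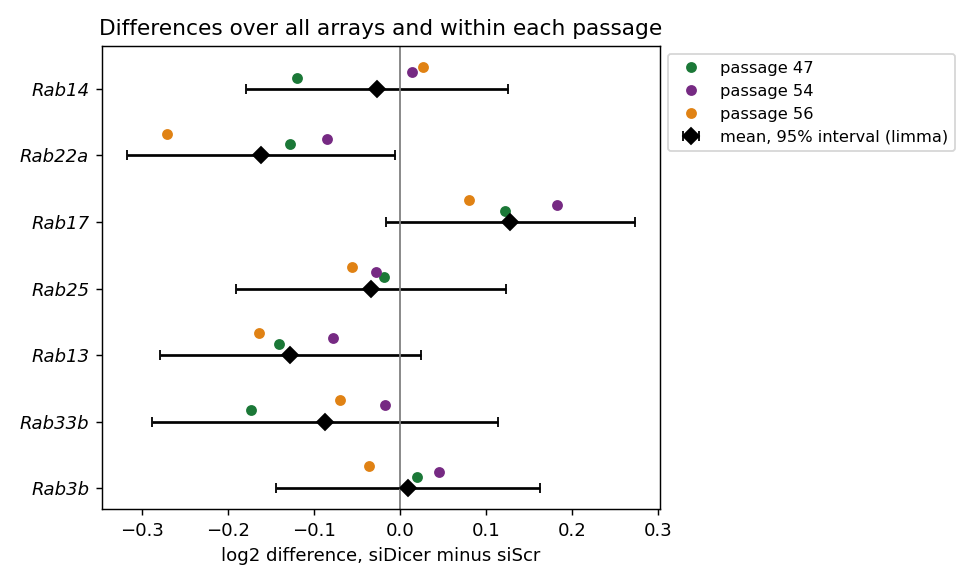
Log2 difference between siDicer and siScr (horizontal axis) for each Rab gene, with a diamond and bar for the estimate over all 6 arrays and its 95% interval from limma, and coloured points for the difference within each passage. The interval of Rab22a ends just below 0 before adjustment, at -0.0057, the other 6 intervals include 0, and Rab14 and Rab3b have points on both sides of 0.

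Counted over the members, 5 were lower and 2 higher in siDicer, with a median log2 difference of -0.03, where 54.5% of all tested genes were lower and their median was -0.0092. The median size of the difference, regardless of sign, was 0.087 for the 7 genes and 0.064 for all tested genes. The groups did not overlap for 3 of 7 members, 2 lower and 1 higher, against 14.5% of all genes (7.81% lower and 6.68% higher). Of the 7, 5 kept 1 sign at all 3 passages, against 36.1% of all genes. The members were chosen with earlier results of these data known, so these comparisons with all genes do not measure an excess among Rab genes. Non-overlapping groups of 3 and 3 arrays have a two-sided exact permutation p of 0.1, the smallest possible when arrays are permuted without regard to passage. Swaps within passages only would allow fewer arrangements and a larger smallest p. The signs of all 7 differences were the same after quantile normalisation and after median centring.

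**Figure D3:**
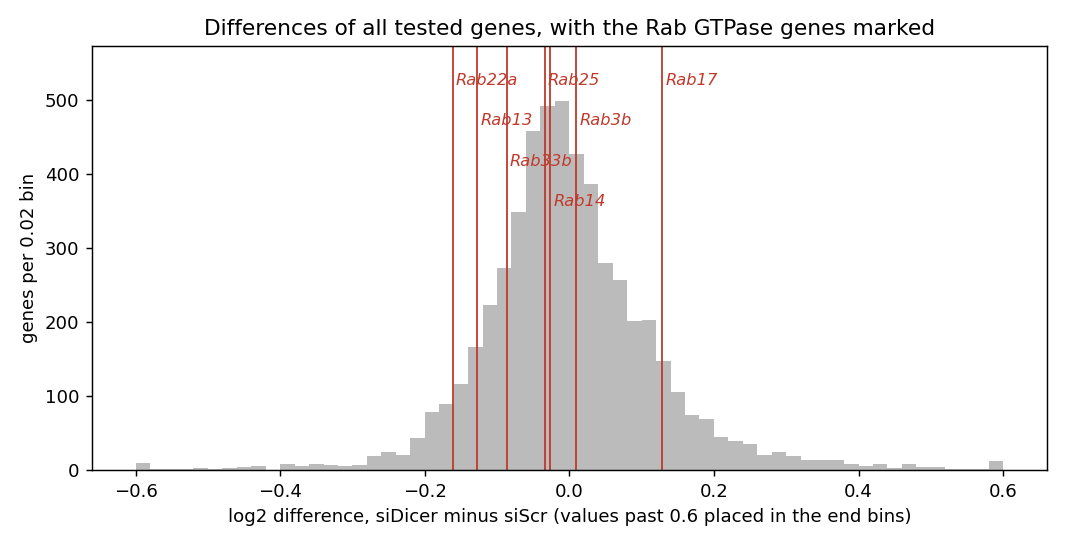
Histogram of the log2 differences between siDicer and siScr (horizontal axis) over 5362 tested genes, in genes per bin (vertical axis), with red lines at the 7 Rab genes. All 7 lines, from -0.16 to 0.13, lie within the main body of the histogram.

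Passage was examined as a further source of spread, in a fit with group and passage. Each passage has its own replicate number, so passage cannot be told apart from anything else that set the replicates apart. No member passed the test of differences between passages (limma moderated F-test, lowest adjusted p = 0.385, for Rab33b), and 0 had an unadjusted p under 0.05, against 16.1% of all genes. Of all tested genes 99 (1.85%) passed, a count that was 13 when siDicer replicate 1 was left out and 308 when siScr replicate 3 was. The passage means of Rab33b were 7.98, 7.78 and 7.92 at passages 47, 54 and 56, a range of 0.20, beside a group difference of -0.09. For Rab22a, Rab13 and Rab17 the range over passage means was 0.060, 0.10 and 0.086, less than the size of their group differences. These are the members whose groups did not overlap, which itself favours a small range, so the range is no separate sign of a group difference. For Rab25 and Rab3b it was 0.14 in both, with the lowest mean at passage 56. For Rab14 it was 0.071, beside a group difference of -0.026. Over all tested genes the median range was 0.13 and the median size of the group difference 0.064. A range wider than the group difference is therefore not particular to Rab33b. The measures are unlike, since a range takes the largest and smallest passage means, each from fewer arrays than a group mean. Array noise alone tends to make the range the wider of them, so their sizes do not rank passage against siRNA.

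Likeness of 2 profiles was measured as the root mean square difference of log2 values after each gene's own mean was taken off, over 6 arrays. Among the members Rab25 and Rab3b were closest, at 0.037, and the next values, from 0.065 for Rab22a and Rab13 upward, lay close together. Rab13 and Rab17 were farthest apart, at 0.15. Among 3419 other protein-coding genes, the closest profiles to Rab22a were those of Zfp267 and Dctn3 (0.023 and 0.025, where the median gene was at 0.12). Cubn and Smu1 were closest to Rab13 (0.018 and 0.024), and Nck2 and Gpr107 to Rab17 (0.020 and 0.025). Ubac1 and Secisbp2l were closest to Rab14, Rcor3 and Gstm6 to Rab33b, Hpcal4 and Lrp4 to Rab25, and Tanc1 and Tmco4 to Rab3b, at 0.011 to 0.022. The measure is also small where both profiles are flat. Around its own mean the root mean square was 0.046 for Rab14, 0.059 for Rab3b and 0.066 for Rab25. It was 0.078 for Rab13, 0.079 for Rab17, 0.093 for Rab22a and 0.10 for Rab33b. How many profiles come this close by array noise was not tested.

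The other genes of the Rab cycle were described from lists of GTPases, exchange factors, activating proteins, escort and carrier proteins, and effectors. Since the values cover chromosomes 1 to 4 only, a listed gene or marker without a value is not thereby unexpressed. Of 55 other Rab and Rab-like genes 6 had a value and 5 were tested, Rab42 being too dim. Of these 4 were higher and 1 lower in siDicer (3 and 2 after quantile normalisation), with a median of 0.01, and 0 passed (limma, lowest adjusted p = 0.663). At an unadjusted p under 0.05 there were 0 of 5 without and 1 of 5 with passage as a block, against 8.52% and 13.8% of all genes. Rabl6, a Rab-like GTPase, had the smallest p-value, with 7.73 ± 0.087 in siDicer against 7.57 ± 0.11 in siScr (SD, n = 3) and a log2 difference of 0.16. Rab2a, which acts between the endoplasmic reticulum and the Golgi, differed by 0.07, Rab7b of late endosomes by -0.10, and Rab23, a regulator of Hedgehog signalling, by 0.01. The groups of these 3 overlapped.

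Of 37 exchange factors 11 were tested, 7 higher and 4 lower (8 and 3 after median centring), with a median of 0.053, and 0 passed (limma, lowest adjusted p = 0.464). Dennd1b, an exchange factor for Rab35, differed most, at 6.96 ± 0.046 in siDicer against 6.77 ± 0.062 in siScr (SD, n = 3). Its log2 difference was 0.18 over all arrays and 0.08, 0.20 and 0.27 at passages 47, 54 and 56, and it was the 1 of 11 with an unadjusted p under 0.05, a share near the 8.52% of all genes. Dennd2c stood at 0.11, also without overlap. Rin2, an exchange factor for Rab5, differed by 0.09 and Dennd2d by 0.08, with overlapping groups.

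Of 41 GTPase activating proteins 9 were tested, 6 higher and 3 lower, with a median of 0.02, which turned to 4 higher, 5 lower and -0.01 after quantile normalisation. Again 0 passed (limma, lowest adjusted p = 0.663), and 0 of 9 had an unadjusted p under 0.05, or 1 of 9 with passage as a block, against 8.52% and 13.8% of all genes. Rab3gap1, the catalytic subunit of the complex that acts on Rab3 proteins, stood at 7.43 ± 0.038 (siDicer) and 7.55 ± 0.027 (siScr, SD, n = 3) without overlap. Its log2 difference was -0.12, and a link to the level of Rab3b was not tested. Tbc1d13, an activator for Rab35, differed by 0.17 without overlap, and Tbc1d2, an activator for Rab7, and Tbck differed by 0.12 and 0.10 with overlap. Of 7 genes for prenylation and carriers Chml, an escort protein, was the 1 tested, at -0.14 with overlapping groups (limma, adjusted p = 0.689).

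Of 51 effectors 10 were tested, 2 higher and 8 lower (3 and 7 after either other scaling), with a median of -0.04, and 0 passed (limma, lowest adjusted p = 0.577). Atg16l1, the autophagy protein that Rab33b binds, was the 1 of 10 effectors with an unadjusted p under 0.05, a share near the 8.52% of all genes. Its mean log2 signals were 6.85 ± 0.049 with siDicer and 6.69 ± 0.069 with siScr (SD, n = 3), and its difference of 0.16 was 0.17, 0.20 and 0.10 at passages 47, 54 and 56. Kif16b, a kinesin that binds Rab14, differed by -0.08, and Rims4 and Rufy4 by -0.09 and -0.07. Over the 31 regulators and effectors together, 15 were higher and 16 lower, where 54.5% of all tested genes were lower. The groups of 5 did not overlap, near the 14.5% of all genes.

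**Figure D4:**
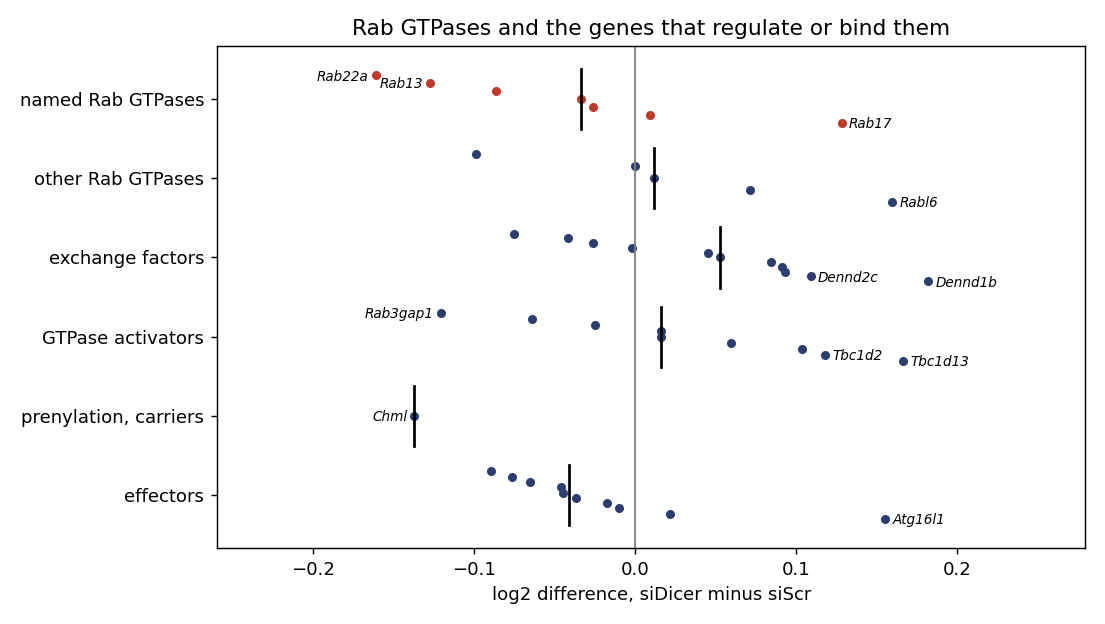
Log2 difference between siDicer and siScr (horizontal axis) for each tested gene, 1 point per gene, by role in the Rab cycle (vertical axis), with black bars at the list medians. Points spread to both sides of 0 in every list with more than 1 gene, and none passed the test.

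Between passages, which are also the replicates, 1 gene of these lists passed the threshold, where 1.85% of all genes did. Mlph, melanophilin, which links Rab27a on melanosomes to the motor myosin Va, had log2 signals of 10.24 and 10.28 at passage 47, 9.70 and 9.64 at passage 54 and 10.08 and 10.23 at passage 56 in siDicer and siScr. Both arrays of passage 54 lay below the other 4 (limma moderated F-test, adjusted p = 0.0366), and the gene was singled out after its values were seen. The call was lost without siDicer replicate 1, siDicer replicate 2, siScr replicate 1 or siScr replicate 2, at adjusted p from 0.141 to 0.406 (limma), and with dim genes kept in, at 0.0605. Its siDicer and siScr means of 10.01 and 10.05 differed by -0.04.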

How the data were processed

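RNA of 6 samples was hybridised to Affymetrix Clariom D mouse arrays, per the labels' protocols. The authors deposited log2 signals per transcript cluster, already on a common scale across arrays. The values, from 1.70 to 13.70, gave the log2 scale. Per the submitters' processing notes, Affymetrix Expression Console was used. Its version, the summarisation, the normalisation and the build are likewise not given in the sources, and background could not be varied.

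The table held 16383 clusters of chromosomes 1 to 4, of which 7716 had 1 gene after symbols were updated through RefSeq. For genes with several clusters (54, no member among them) the highest mean was used, and 2298 genes under the 30th percentile of mean signal (log2 4.15) were left out. The comparison used limma 3.58.1 under R 4.3.3 (eBayes with trend, two-sided, Benjamini-Hochberg, threshold 0.05). The number of arrays limits the precision.

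Each replicate number marks 1 passage in the labels and so pairs the samples. Deviations from the group means of same-numbered arrays correlated at 0.42, 0.62 and 0.070. The members and lists were chosen with earlier results of these data known. The text names all 7 members, up to 4 genes per list by smallest p, the 2 nearest profiles of each member (leaving out noncoding and predicted genes), and Mlph. Alternatives were passage as a block, no dim filter, quantile normalisation, median centring, array weights, mean of clusters, no variance trend, and leaving out each array or passage. Promoter stretches came from RefSeq, which had entries for all 7 members.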

Additional observations from a re-analysis of the deposited data

How the results depend on the processing

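No member passed under any of 16 alternatives to the group comparison (lowest limma adjusted p = 0.288, for Rab22a with array weights). Of 112 member values under them 104 kept their direction. Those that turned belong to 3 genes near 0. Rab25 was at 0.00034 with array weights and ran from -0.072 to 0.016 with 1 array left out. Rab14 was at 0.021 with passage as a replicate block and passage 47 left out, and ran from -0.054 to 0.015 with 1 array left out. Rab3b was at -0.0084 with the block and passage 54 left out, and ran from -0.024 to 0.058. Passage as a block changed the call of no member or list gene, and 0 genes of the 5 lists passed under any alternative.

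Over all genes, 93 passed with the replicate block and 14 with array weights, against 1. With the block, leaving out passage 47 gave 3, passage 54 gave 19 and passage 56 gave 153, and with 1 array left out 0 to 2 passed. The 99 genes that passed between passages became 58 with dim genes kept in, 202 after median centring and 165 with array weights. With 1 array left out they numbered 13, 18 and 260 without siDicer replicates 1, 2 and 3, and 28, 33 and 308 without siScr replicates 1, 2 and 3, while 0 members passed under any of 12 alternatives. The causes were not tested. With 3 arrays a group the standard errors of the member differences were 0.063 to 0.087 in the main fit. They were 0.055 to 0.066 with passage as a block.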
